A study of Mus musculus with 8 samples.

Results

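The genes described here are 38 named targets and partners of the tumor suppressor p53, together with genes of the DNA damage response, in mouse liver with and without the liver X receptors (LXRs). They were named by symbol as members of the pathway, in a list drawn up with earlier results of these data known, and are 38 of the 25010 genes listed. Inka2 appears in the table under its older name, Fam212b. Livers of 2 WT and 2 LXRDKO mice were compared. LXRDKO mice carry no functional Nr1h3 (the gene of LXRα) or Nr1h2 (that of LXRβ) in any tissue, not in hepatocytes alone. All 4 mice were on the C57BL/6 background, 8 wk old, fed standard chow and fasted for 4 to 6 h, and RNA came from the left lobe of the liver. The knockout lines had been backcrossed to this background from other stock. Each library was 1 mouse, and whole tissue was measured, so that fewer cells of a type and less RNA per cell cannot be told apart.

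p53 is a transcription factor that damaged cells hold back from degradation. ATM and ATR sense broken or stalled DNA and act through the kinases CHK1 and CHK2, and p53 then switches on genes that stop the cell cycle, restrain growth signals, prime the cell for death or aid repair. One of its targets, Mdm2, encodes the ligase that marks p53 for destruction, which closes a feedback loop. p53 is mainly controlled at the level of the protein, which RNA-Seq does not measure. In the liver the pathway is known for its response to genotoxic agents and to injury of hepatocytes.

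In LXRDKO livers 4 of the 38 genes rose and 0 fell by limma at an adjusted P value under 0.05. The share called among all 15578 genes tested was 0.135% higher and 0.186% lower. The 4 genes were Cdkn1a, which encodes the cell cycle inhibitor p21, Phlda3, Inka2 and the receptor gene Eda2r. Each had a mean 19.6 to 55.7 times that of WT livers. DESeq2, run on the recovered read counts, called 15 of the 38 genes higher and 0 lower, against 1.56% and 2.03% of the genes that it tested. Arrest and growth signalling genes held 9 of these 15, apoptosis genes 4 of 12, repair genes 1 of 5 (Polk), and p53 and its control genes 1 of 4 (Mdm2). The RNA of p53 itself and of the 4 damage kinases overlapped between the genotypes. The limma calls rest on a variance trend across genes, since without it limma called 0 of the 38, and 1 gene in all.

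All 38 genes passed the filter of a mean of at least 10 normalized counts, but Inka2 did so through the LXRDKO livers alone. A normalized count is a read count divided by a size factor for its library. Fold changes are given as the difference of log2(normalized count + 1) between LXRDKO and WT, with its standard error (SE), and they understate the change of genes with few counts. Adjusted P values are from limma across all genes tested unless DESeq2 or the quasi-likelihood test of edgeR is named. For 1 gene in 2 livers per genotype, an exact two-sided permutation test cannot go below P = 0.33, so that every adjusted P value rests on a spread pooled across genes. Nothing in the labels says that mice with the same number belong together.

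**Figure D1:**
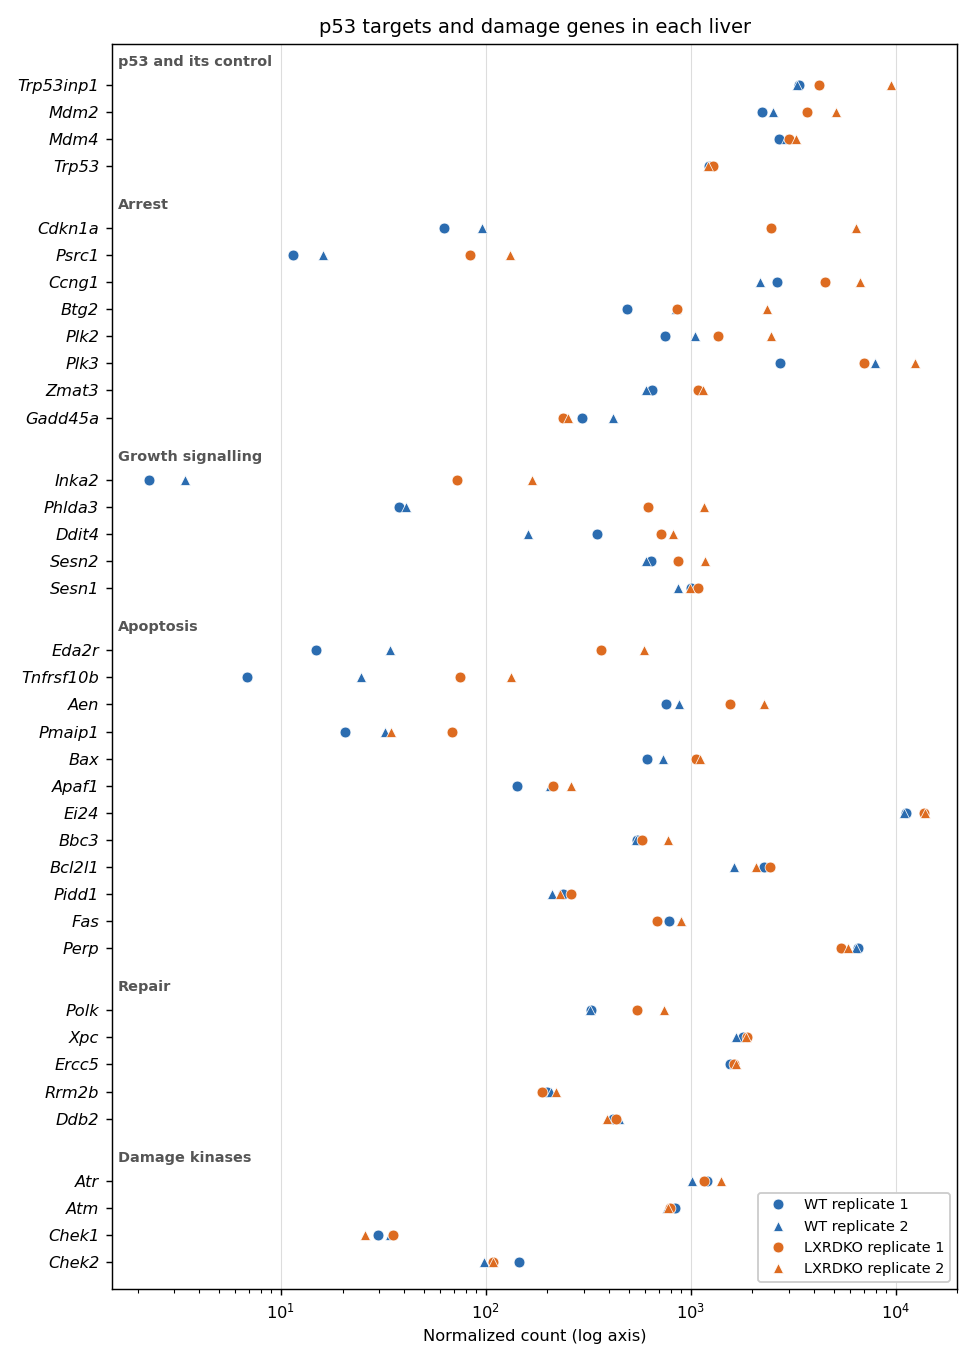
Normalized counts (log axis) of the 38 genes, grouped by role, in each liver; circles are replicate 1 and triangles replicate 2, blue for WT and orange for LXRDKO, and points of equal value cover each other. Cdkn1a, Phlda3, Inka2 and Eda2r show wide gaps between the genotypes, while Trp53 lies between 1210 and 1279 in all 4 livers.

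Several facts about the libraries bear on these values. Each library held from 55772659 to 72842744 reads on genes, and a gene typically differed by 0.18 on the log2 scale between one WT liver and the other and by 0.17 between the LXRDKO pair (median absolute difference). Nr1h3 RNA ranged from 5322 to 5785 normalized counts in WT and from 1712 to 1826 in LXRDKO livers, and Nr1h2 from 2987 to 3110 and from 925 to 1003, so that the labels and the deleted genes point the same way. The 10 hepatocyte markers were high in every liver, with summed levels of 7495120 to 8243870 in WT and 7234650 to 7813640 in LXRDKO. Most of this sum was Alb. Of the 10, 3 were higher in both LXRDKO livers and 1 was lower. DESeq2 called Hnf4a and Tat higher, at log2 fold changes of 0.60 and 0.65. Of 10 Kupffer cell markers, 8 had both LXRDKO livers under both WT livers, and Timd4 was at 0 in LXRDKO replicate 2. Their sum was 12590 to 13539 in WT and 3542 to 5658 in LXRDKO. Of the 8 markers of monocyte-derived macrophages tested, 7 were higher in both LXRDKO livers (sums 2074 to 4460 and 5627 to 6176), as were 9 of 9 cholangiocyte markers (3699 to 5350 and 6583 to 7436) and 6 of 10 stellate cell markers (19290 to 22666 and 26947 to 29681). The macrophage and cholangiocyte lists both hold Spp1, at 1433 and 2907 in WT and 3658 and 4300 in LXRDKO. It was the largest value of both lists in every liver, so that their sums are not independent. Of 10 sinusoidal endothelial markers, 7 were lower in both LXRDKO livers (17136 to 19306 and 11244 to 15147). Of 9 T and NK cell markers tested, 4 were lower in both LXRDKO livers (420 to 515 and 325 to 413), and 8 had a log2 fold change below 0. Of 9 B cell markers tested, 6 were lower in both LXRDKO livers and 1 higher (835 to 901 and 762 to 1075). The 2 neutrophil markers tested overlapped (list sums 103 to 134 and 104 to 152). Among all genes tested, both LXRDKO livers were above both WT livers for 21.7% and below them for 23%. The part of these cell types in the values below was not tested.

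The sequence to which p53 binds is known as a p53 consensus element. It consists of 2 adjoining half-sites of 10 bases, each of 3 purines, C, 2 bases that are A or T, G and 3 pyrimidines, and it is its own reverse complement, so that a search of one strand covers both. In windows of 5 kb on each side of the gene start on GRCm38 (the assembly that mm10 stands for), elements with no spacer and at most 2 mismatches, none at the C or G of a half-site, were found for 13 of the 38 genes (34.2%). Of all 15548 tested genes with a gene model, 11.2% held one. With at most 1 mismatch the shares were 13.2% of the 38 and 2.01% of all, and with 0 mismatches 5.26% and 0.296%. Of the 15 genes that DESeq2 called higher, 8 held a match, and of the 23 others 5 did. Sequences are shown for 6 of the 8, leaving out a second match of Zmat3 (1 mismatch) and the matches of Plk2 and Bax (2 mismatches), because direct targets of p53 are switched on through this element. Each is given 5′ to 3′ on the strand of its gene from the RefSeq copy of GRCm38, with the 20 bases of the match in capitals. The gene start is the outermost 5′ end of the gene model, and the starts of single transcripts were not considered. A distance is therefore not one from the promoter in use in liver. A match is a description of the letters and does not show that p53 was bound.
Cdkn1a, chr17:29090928-29090947, plus strand, upstream at −39 bases from the gene start, 1 mismatch: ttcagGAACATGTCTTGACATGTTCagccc
Zmat3, chr3:32364331-32364350, minus strand, exon, 0 mismatches: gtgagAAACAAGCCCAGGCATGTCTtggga
Ddit4, chr10:59956461-59956480, minus strand, upstream at −4637 bases from the gene start, 0 mismatches: agggaAAGCATGTCCAGGCTAGCCCccatg
Ddit4, chr10:59948502-59948521, minus strand, downstream of the gene, 0 mismatches: actccAGACTTGCCTGGACTAGTCTagatg
Ccng1, chr11:40755462-40755481, minus strand, upstream at −161 bases from the gene start, 1 mismatch: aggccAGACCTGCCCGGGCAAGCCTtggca
Ccng1, chr11:40754936-40754955, minus strand, intron, 1 mismatch: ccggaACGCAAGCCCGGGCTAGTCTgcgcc
Psrc1, chr3:108384656-108384675, plus strand, intron, 1 mismatch: tccctGGGCATGTTGAGGCATGCCCtgcaa
Eda2r, chrX:97376534-97376553, minus strand, intron, 2 mismatches: tgcctGGGCAAGTCCGGGCCTGTGTaaaaa

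**Figure D2:**
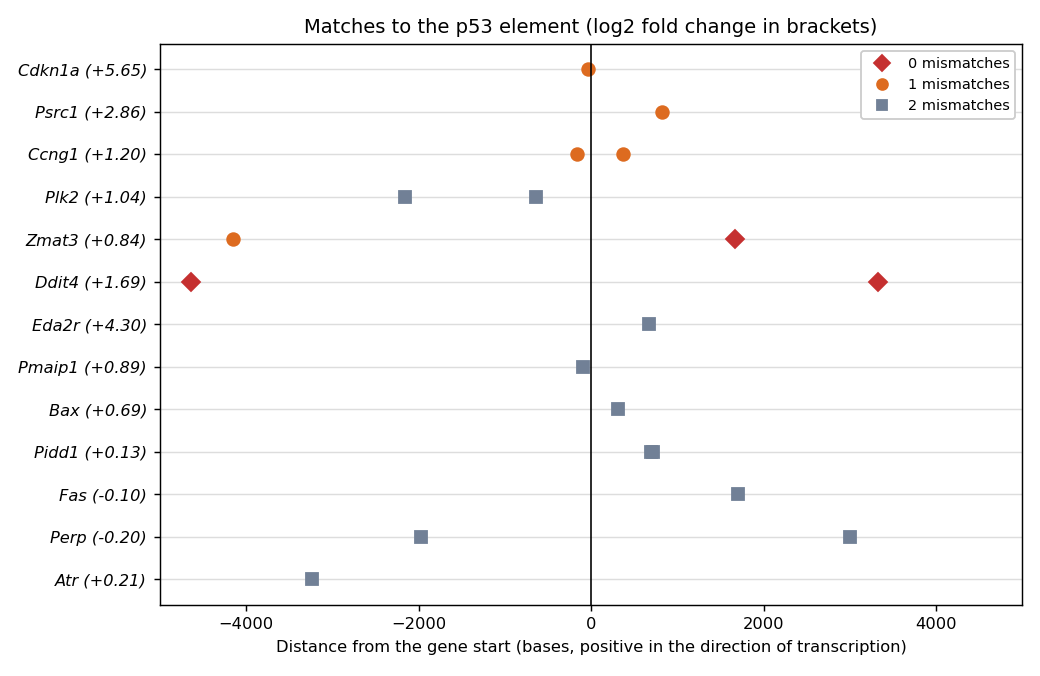
Distance in bases from the gene start (positive in the direction of transcription) of each match to the p53 element within 5 kb, for the 13 genes with at least 1 match; marker shape and color give the number of mismatches, and the log2 fold change stands in brackets. Both matches of Ddit4 and 1 of the 2 of Zmat3 have 0 mismatches, and the match of Cdkn1a lies at −39 bases from the outermost start of its gene model.

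Among p53 and the genes that control it, Trp53, the gene of p53 itself, had 1222 and 1221 normalized counts in WT livers, against 1279 and 1210 in LXRDKO livers. The groups overlapped, and the log2 fold change was 0.03 (SE 0.10, adjusted P = 0.946, limma; 95% interval −0.22 to 0.27). Mdm2, the ligase and feedback target, had 2231 and 2529 in WT and 3699 and 5090 in LXRDKO. Both LXRDKO livers were above both WT livers, with a log2 fold change of 0.87 (SE 0.17) that DESeq2 called (adjusted P = 0.00045) and limma did not (adjusted P = 0.136). The DESeq2 call was lost without LXRDKO replicate 2 (adjusted P = 0.175). No match to the p53 element was found within 5 kb of the Mdm2 gene start, which says only that these letters are not in that window. Mdm4, a relative of Mdm2 that binds and inhibits p53, had 2691 and 2905 in WT and 3002 and 3260 in LXRDKO. Its groups did not overlap but lay close, at a log2 fold change of 0.16 (SE 0.10), and neither tool called it. Trp53inp1, which encodes a stress protein that p53 induces, had 3391 and 3298 in WT and 4214 and 9430 in LXRDKO. Most of its difference came from LXRDKO replicate 2, and the log2 fold change of 0.91 (SE 0.36) was called by neither limma (adjusted P = 0.361) nor DESeq2 (adjusted P = 0.491).

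The arrest genes were led by Cdkn1a, on chromosome 17 from 29090976 to 29100727, whose product p21 inhibits cyclin-dependent kinases. It had 62.7 and 95.9 normalized counts in WT livers, against 2457 and 6375 in LXRDKO livers. Both LXRDKO livers stood far above both WT livers, and replicate 2 was 2.59 times replicate 1. Cdkn1a rose by a log2 fold change of 5.65 (SE 0.46, adjusted P = 0.0255, limma; 95% interval 4.51 to 6.80), and both DESeq2 (adjusted P = 5.2e-14) and edgeR (adjusted P = 0.0418) called it. Per kb of exon, its mean level went from 22.3 normalized counts in WT to 1243 in LXRDKO, while that of Trp53 was 302 and 308. Cdkn1a RNA was thus below Trp53 RNA per kb in WT livers and above it in LXRDKO livers. Leaving out LXRDKO replicate 1 gave a log2 fold change of 6.34 and leaving out replicate 2 gave 4.97, and with 1 liver left in the genotype the limma call was lost in each case (adjusted P = 0.0577 and 0.0587).

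The next of the arrest genes by size was Psrc1, which encodes a protein of the mitotic spindle. Psrc1 had 11.4 and 16.1 normalized counts in WT livers, against 83.5 and 132 in LXRDKO livers, with no overlap. Its log2 fold change was 2.86 (SE 0.38), called by DESeq2 (adjusted P = 6.7e-06) and short of the threshold in limma (adjusted P = 0.0712). Without LXRDKO replicate 2 the DESeq2 call was lost (adjusted P = 0.190). In reads this was 29 over the WT livers and 211 over the LXRDKO livers, a ratio per normalized depth of 7.53 with a 95% interval of 5.09 to 11.5 for counting error alone. Ccng1, cyclin G1, a long-known p53 target, had 2621 and 2187 in WT and 4528 and 6720 in LXRDKO. Both LXRDKO livers were above both WT livers, and the log2 fold change of 1.20 (SE 0.20) was called by DESeq2 (adjusted P = 2.5e-06) but not by limma (adjusted P = 0.115).

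Zmat3, an RNA-binding zinc finger protein, had the closest replicates of the arrest genes that DESeq2 called, with 644 and 603 normalized counts in WT livers, against 1079 and 1152 in LXRDKO livers. Its log2 fold change was 0.84 (SE 0.11; adjusted P = 7.3e-05 by DESeq2, 0.0765 by limma). With 1 liver left out, DESeq2 called Zmat3 only where this was WT replicate 1. Zmat3 is also the gene of the element without mismatches labeled exon above. No annotated coding or untranslated region of Zmat3 covers that stretch. Plk2, a polo-like kinase, had 753 and 1046 in WT and 1361 and 2460 in LXRDKO, with a log2 fold change of 1.04 (SE 0.31; adjusted P = 0.0079 by DESeq2, 0.255 by limma). It was 0.62 with LXRDKO replicate 2 left out and 1.47 with LXRDKO replicate 1 left out, and DESeq2 called Plk2 in the latter case alone of the 4. The groups of Plk2 did not overlap. Its relative Plk3 varied more between livers of 1 genotype, from 2736 to 7964 in WT and from 7029 to 12478 in LXRDKO, and its groups overlapped.

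Btg2, an antiproliferative gene, had 486 and 850 normalized counts in WT livers, against 854 and 2363 in LXRDKO livers. Its groups were apart only by the small gap between WT replicate 2 and LXRDKO replicate 1, and the log2 fold change of 1.14 (SE 0.51) was called by neither limma (adjusted P = 0.412) nor DESeq2 (adjusted P = 0.632). Gadd45a, a stress gene whose product binds regulators of the cell cycle and of repair, was the one arrest gene with lower values in both LXRDKO livers, at 238 and 251 against 294 and 418 in WT. The log2 fold change of −0.52 (SE 0.21, adjusted P = 0.384, limma) did not pass the test. Gadd45a overlaps exons of E230016M11Rik on the opposite strand, which had 173 to 339 normalized counts, and the sources used here do not say whether reads were counted by strand. In total, 6 of the 8 arrest genes had both LXRDKO livers above both WT livers, against 21.7% of all genes. The median log2 fold change of the group was 1.09, and it was 0.70 with LXRDKO replicate 2 left out and 1.48 with LXRDKO replicate 1 left out.

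Of the 5 genes that act on growth signalling, limma called 2 higher and DESeq2 called 4, against 0.135% and 1.56% of all genes. Both LXRDKO livers were above both WT livers for 4 of the 5, against 21.7% of all genes. Phlda3, on chromosome 1 from 135766119 to 135769136, encodes a small protein that keeps the kinase AKT from the membrane. It had 37.6 and 40.7 normalized counts in WT livers, against 615 and 1160 in LXRDKO livers. WT livers were nearly equal and both LXRDKO livers were far above them, at a log2 fold change of 4.40 (SE 0.33, adjusted P = 0.0239, limma; 95% interval 3.59 to 5.21), which DESeq2 (adjusted P = 3.5e-34) and edgeR (adjusted P = 0.0286) also called. Without LXRDKO replicate 1 or replicate 2 the limma call was lost (adjusted P = 0.0718 and 0.0702), while the fold change stayed between 3.94 and 4.85 over the 4 livers left out in turn.

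Inka2, on chromosome 3 from 105704599 to 105720842, encodes an inhibitor of the kinase PAK4. It was close to absent in WT livers, at 2.28 and 3.40 normalized counts, and had 72.1 and 167 in LXRDKO livers. These are 6 reads over the WT livers and 232 over the LXRDKO livers, a ratio per normalized depth of 40.0 (95% interval 18.1 to 110, counting error alone). Inka2 rose by a log2 fold change of 4.87 (SE 0.52, adjusted P = 0.0453, limma). edgeR did not call it (adjusted P = 0.0638), and a pseudocount of 8 in place of 1 gave a log2 fold change of 3.45 (adjusted P = 0.0583, limma). The limma call was also lost without the filter on low values, with a filter at a mean of 50, and without LXRDKO replicate 1 (adjusted P = 0.151) or replicate 2 (adjusted P = 0.207). No match to the p53 element was found within 5 kb of the starts of Phlda3 and Inka2.

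Ddit4 and the sestrins restrain the growth regulator mTORC1 under stress. Ddit4, the gene of both distal elements without mismatches shown above, had 348 and 160 normalized counts in WT livers, against 712 and 823 in LXRDKO livers. The groups did not overlap and the spread was larger in WT, with a log2 fold change of 1.69 (SE 0.36; adjusted P = 0.000185 by DESeq2, 0.155 by limma). Sesn2 had 643 and 608 in WT and 865 and 1176 in LXRDKO, a log2 fold change of 0.69 (SE 0.17; adjusted P = 0.0286 by DESeq2, 0.205 by limma). With 1 liver left out it ranged from 0.47 to 0.91, and DESeq2 called it in none of the 4 cases (adjusted P of at least 0.0504). Both LXRDKO livers were again above both WT livers. Sesn1, by contrast, lay between 864 and 1001 in WT and between 996 and 1086 in LXRDKO, so that its groups overlapped. Growth signalling genes had a median log2 fold change of 1.69, the highest of the 6 roles. It came to 2.25 with WT replicate 1 left out and to 1.14 with WT replicate 2 left out, where the arrest genes had 1.41.

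**Figure D3:**
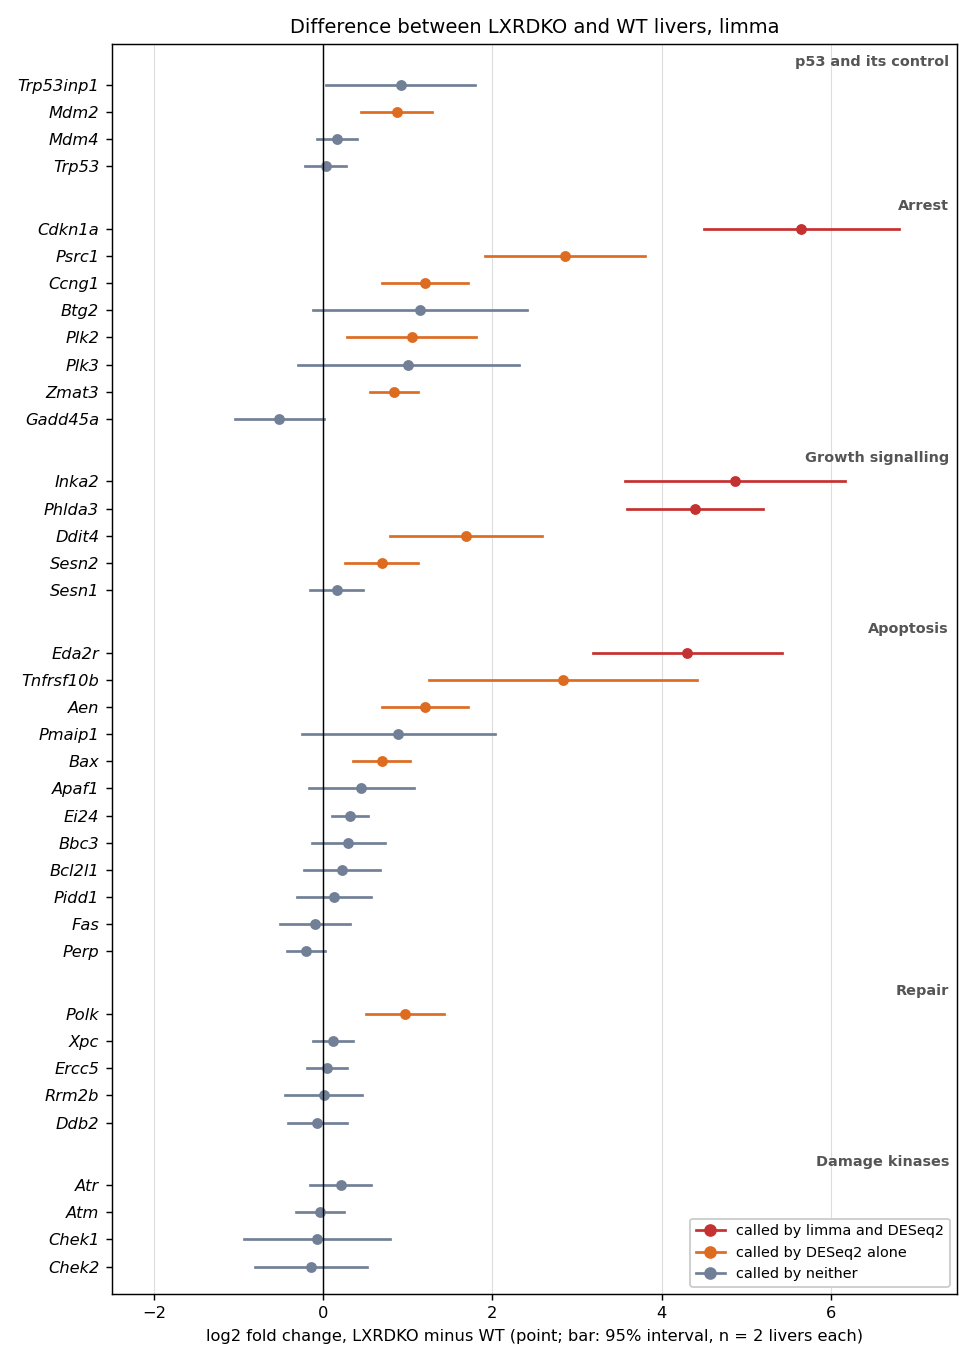
Log2 fold change (LXRDKO minus WT) of each of the 38 genes, grouped by role, with the 95% interval from limma as a bar; red marks genes called by limma and DESeq2, orange those called by DESeq2 alone and gray those called by neither. The 4 red genes lie between 4.30 and 5.65. Every orange interval lies above 0, as do the gray ones of Ei24 and Trp53inp1, and the intervals are not adjusted for the number of genes tested.

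The 12 apoptosis genes divided. Eda2r, on chromosome X from 97333840 to 97377216, encodes a receptor of the tumor necrosis factor family that binds ectodysplasin A2. It had 14.8 and 34.0 normalized counts in WT livers, against 365 and 589 in LXRDKO livers. Both LXRDKO livers were far above both WT livers, and Eda2r rose by a log2 fold change of 4.30 (SE 0.45, adjusted P = 0.0432, limma; 95% interval 3.19 to 5.42), as also called by DESeq2 (adjusted P = 2.7e-22) and edgeR (adjusted P = 0.0469). Without LXRDKO replicate 1 or 2, or with a filter at a mean of 50, the limma call was lost (adjusted P = 0.180 and 0.195 for the livers). Tnfrsf10b, the receptor for the death ligand TRAIL, had 6.84 and 24.6 in WT and 75 and 133 in LXRDKO. These are 35 reads over the WT livers and 203 over the LXRDKO livers, a ratio per normalized depth of 6.00 (95% interval 4.18 to 8.85, counting error alone). The log2 fold change of 2.83 (SE 0.64) was called by DESeq2 (adjusted P = 0.0017) and not by limma (adjusted P = 0.172). It was 1.98 with WT replicate 1 left out and 3.68 with WT replicate 2 left out, and the DESeq2 call was lost without WT replicate 1 (adjusted P = 0.086) and without LXRDKO replicate 2 (adjusted P = 0.559). Fas, the other death receptor among the 38, lay between 786 and 896 in WT and between 685 and 897 in LXRDKO, at a log2 fold change of −0.10 (95% interval −0.51 to 0.32).

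Aen, a nuclease that p53 induces in apoptosis, had 758 and 877 normalized counts in WT livers, against 1546 and 2284 in LXRDKO livers. Its log2 fold change was 1.20 (SE 0.20; adjusted P = 7.5e-06 by DESeq2, 0.115 by limma). Bax, which opens the outer membrane of mitochondria, had 609 and 735 in WT and 1056 and 1104 in LXRDKO. The log2 fold change of Bax was 0.69 (SE 0.13; adjusted P = 0.0088 by DESeq2, 0.136 by limma), and DESeq2 did not call it with any 1 of the 4 livers left out (adjusted P from 0.0542 to 0.461). Neither gene had overlapping groups. Of the BH3-only activators of the same step, Bbc3 (PUMA) had 547 and 543 in WT and 577 and 777 in LXRDKO, and Pmaip1 (NOXA) had 20.5 and 32.3 in WT and 68.3 and 34.3 in LXRDKO. Both were apart by a narrow gap only, and with log2 fold changes of 0.30 (SE 0.17) and 0.89 (SE 0.46) neither tool called them. In Pmaip1, LXRDKO replicate 2 was at 0.502 times replicate 1, and in Bbc3 at 1.35 times.

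The remaining apoptosis genes differed little. Ei24, which encodes a protein of the endoplasmic reticulum membrane, had the closest replicates, with 11168 and 10954 normalized counts in WT livers, against 13660 and 13880 in LXRDKO livers. Its log2 fold change of 0.32 (SE 0.09, adjusted P = 0.235, limma) did not pass the adjusted threshold. Apaf1, the core of the apoptosome, had 143 and 206 in WT and 212 and 260 in LXRDKO, at 0.45 (SE 0.25) on the log2 scale. Perp, a membrane protein of cell junctions, was lower in both LXRDKO livers, at 5388 and 5828 against 6545 and 6367, with a log2 fold change of −0.20 (SE 0.09, adjusted P = 0.407, limma). Groups overlapped for Pidd1, the scaffold of a caspase-2 complex, and for Bcl2l1, whose product BCL-XL protects cells from death. Pidd1 lay between 211 and 259 over the 4 livers and Bcl2l1 between 1630 and 2432, and their log2 fold changes were 0.13 and 0.22. In all, 8 of the 12 apoptosis genes had both LXRDKO livers above both WT livers, against 21.7% of all genes, and the median log2 fold change was 0.38.

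Repair genes gave 1 DESeq2 call in 5. Polk, a polymerase that copies past damaged bases, had 326 and 323 normalized counts in WT livers, against 545 and 743 in LXRDKO livers. The WT livers were nearly equal and both LXRDKO livers higher, with a log2 fold change of 0.97 (SE 0.19; adjusted P = 0.0014 by DESeq2, 0.131 by limma). With 1 liver left out, DESeq2 called Polk only where this was LXRDKO replicate 1. Xpc, which recognizes distorted DNA, had 1790 and 1660 in WT and 1871 and 1862 in LXRDKO, and its log2 fold change of 0.11 (SE 0.10) passed no test. Ercc5, which cuts out the damaged strand, Ddb2, which finds ultraviolet lesions, and Rrm2b, which supplies nucleotides for repair, had overlapping groups and log2 fold changes of 0.04, −0.07 and 0.01. Over the 4 livers Ercc5 lay between 1557 and 1657, Ddb2 between 392 and 447 and Rrm2b between 189 and 221. Their 95% intervals reached from −0.45 to 0.46 at the widest, for Rrm2b. The median log2 fold change of the repair genes was 0.04.

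None of the 4 damage kinases was called by limma, DESeq2 or edgeR, and their groups overlapped. Atm had 839 and 768 normalized counts in WT livers, against 793 and 773 in LXRDKO livers, with a log2 fold change of −0.04 (95% interval −0.32 to 0.25). Atr had 1201 and 1019 in WT and 1160 and 1405 in LXRDKO, with a log2 fold change of 0.21 (95% interval −0.16 to 0.57). The checkpoint kinase genes were expressed at a lower level and were measured with less precision. Chek1 had 29.7 and 34.0 in WT and 35.1 and 25.7 in LXRDKO, with a log2 fold change of −0.08 (95% interval −0.94 to 0.79). Chek2 had 146 and 98.5 in WT and 108 in each LXRDKO liver, with a log2 fold change of −0.15 (95% interval −0.81 to 0.52). These are RNA levels, and the activity of these kinases was not measured.

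Taking the 38 genes as a whole, 31 had a log2 fold change above 0, against 49.1% of all genes tested, and the median was 0.57 against −0.0046 for all genes. Both LXRDKO livers were above both WT livers for 23 of the 38, against 21.7% of all genes, and below them for 2 (Gadd45a and Perp), against 23%. At an unadjusted P value under 0.05 in limma, 17 were higher, against 5.77% of all genes, and 0 were lower, against 7.5%. edgeR called 3 higher (Cdkn1a, Phlda3 and Eda2r), against 0.122% of all genes. For the 23 genes that no tool called, both LXRDKO livers were above both WT livers in 8 and below in 2, against 21.7% and 23% of all genes. Groups overlapped in 13, and the log2 fold changes of the 23 lay from −0.52 to 1.14. Counts over these genes describe this list and are no test of it. Of the 8 genes with a WT mean under 100 normalized counts, DESeq2 called 6 higher, and the exceptions were Pmaip1 and Chek1. The share among all genes under that WT level was not computed, so this count shows nothing particular to the 38.

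The LXRDKO livers differed from each other in the size of these changes. Replicate 2 was above replicate 1 for all 15 genes that DESeq2 called, by a median ratio of 1.48 and a range from 1.05 for Bax to 2.59 for Cdkn1a. Among the 23 other genes, replicate 2 was above replicate 1 in 14, with a median ratio of 1.02. Across all genes tested the share was 50.3%. In WT livers replicate 2 was above replicate 1 for 21 of the 38 genes, against 49.5% of all genes. Leaving out LXRDKO replicate 2 brought the median log2 fold change of the 38 genes to 0.33, and leaving out replicate 1 to 0.56. With each liver left out in turn, DESeq2 called 7 of the 15 in all 4 cases (Cdkn1a, Ccng1, Phlda3, Inka2, Ddit4, Eda2r and Aen) and 2 in none (Bax and Sesn2). It called 7 of the 38 higher without replicate 2 and 14 without replicate 1, while limma called 0 in each case. Whether the mouse or its sample of tissue set this difference was not tested.

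**Figure D4:**
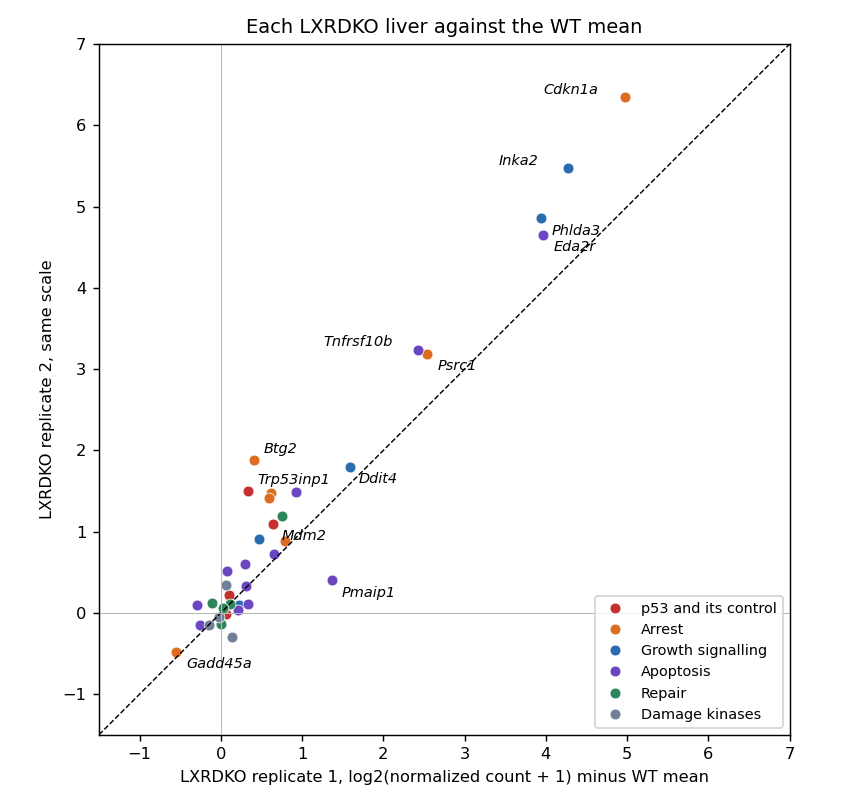
Difference from the WT mean, in log2(normalized count + 1), of LXRDKO replicate 2 (vertical) against LXRDKO replicate 1 (horizontal) for the 38 genes, colored by role; the dashed line marks equal differences. Cdkn1a lies at 4.97 and 6.34, and the genes with large differences lie above the line, with Pmaip1 below it at 1.37 and 0.40.

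Other genes of the same pathways were described from lists of their own. Of 36 other p53 targets tested, out of 40 listed, limma called 0 and DESeq2 called 7 higher and 0 lower, against 1.56% and 2.03% of all genes. At an unadjusted P value under 0.05 in limma, 11 were higher and 3 lower, against 5.77% and 7.5%. Their median log2 fold change was 0.20, and 20 had LXRDKO values above those of WT without overlap and 7 below, against 21.7% and 23%. The first 5 of the DESeq2 calls by limma P value were Dyrk3, a kinase (1.75, SE 0.29), Sulf2, a heparan sulfatase (0.46, SE 0.10), Gtse1, which binds p53 late in the cell cycle (1.12, SE 0.25), Dcxr, a sugar reductase (0.55, SE 0.13), and Igfbp3, a binding protein of insulin-like growth factors (0.77, SE 0.20), all as log2 fold changes. All 36 lay between −2.45 and 2.48, below the 4.30 to 5.65 of Cdkn1a, Phlda3, Inka2 and Eda2r.

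Repair lists beyond the 5 members had medians close to 0. The 24 other genes of nucleotide and base excision repair lay between −0.30 and 0.23 on the log2 scale with a median of −0.03, and neither limma nor DESeq2 called any, with 0 higher and 1 lower at an unadjusted P value under 0.05 in limma. The 38 genes of break repair and checkpoint signalling ranged from −2.07 to 1.07 with a median of 0.09. There were 0 limma calls among them, with 3 higher and 3 lower at an unadjusted P value under 0.05. For both lists, the unadjusted share of all genes was 5.77% higher and 7.5% lower, and the DESeq2 share 1.56% and 2.03%. DESeq2 called 1 of the break repair and checkpoint genes higher and 1 lower. These were Brca1, which acts in homologous recombination (0.89, SE 0.21; adjusted P = 0.0449, DESeq2), and Dclre1c, which encodes the nuclease Artemis (−0.52, SE 0.11; adjusted P = 0.0435, DESeq2).

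Cell cycle genes, which p21 and p53 repress when the pathway halts division, had a median log2 fold change of 0.94 over the 35 tested. The median moved to 0.52 with WT replicate 1 left out and to 1.28 with WT replicate 2 left out. Both LXRDKO livers were above both WT livers for 25 of the 35 and below them for 3, against 21.7% and 23% of all genes. limma called 0 of them, with 18 higher and 1 lower at an unadjusted P value under 0.05 (5.77% and 7.5% of all genes). Against a share of 1.56% of the genes that it tested, DESeq2 called 2 higher. These were the mitotic kinesins Kif23, with 31.9 and 39.0 normalized counts in WT livers, against 109 and 84.7 in LXRDKO livers, and Kif20a, with 73.0 and 119 in WT and 249 and 191 in LXRDKO. Both were higher in LXRDKO replicate 1 than in replicate 2, the reverse of the order seen for Cdkn1a. Replicate 2 was above replicate 1 for 5 of the 35 cell cycle genes in LXRDKO livers, and in WT livers for 32 of the 35, so that the WT livers also differed in this list. Of 5 other inhibitors of cyclin-dependent kinases tested, DESeq2 called Cdkn2c alone higher, at a log2 fold change of 0.72 (SE 0.17, adjusted P = 0.0428, DESeq2). limma called 0 of the 5, with 2 higher at an unadjusted P value under 0.05. The shares of all genes were 1.56% for DESeq2 and 5.77% at that unadjusted P value, and 5 genes are too few to set against them.

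**Figure D5:**
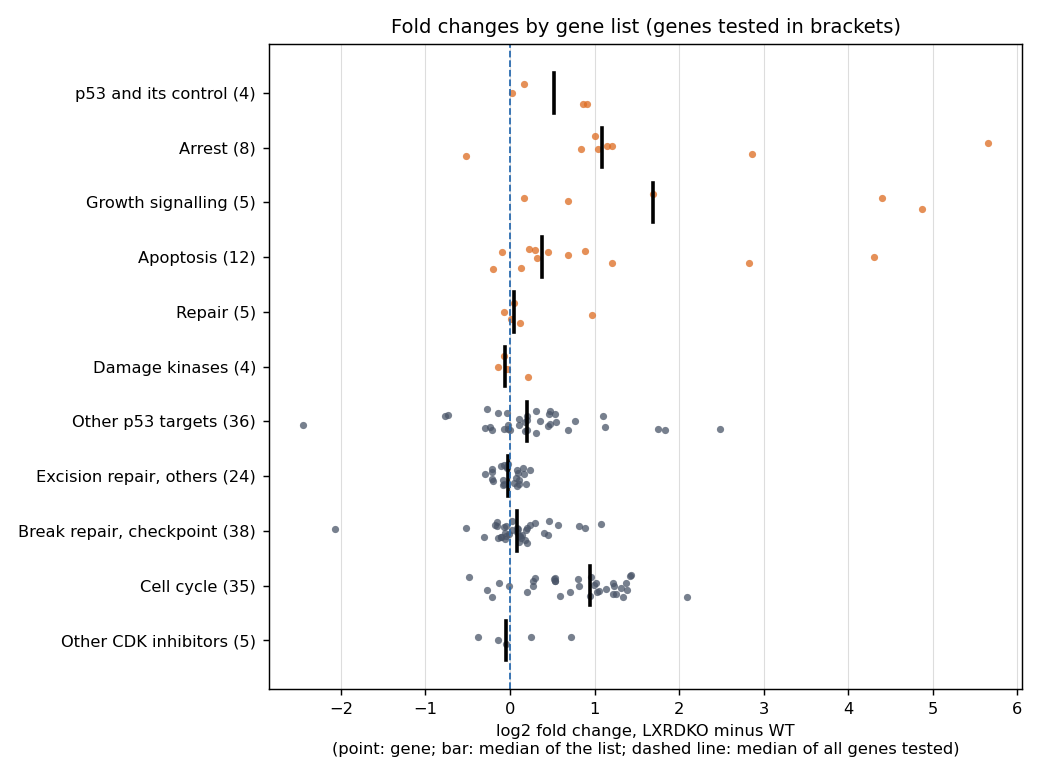
Log2 fold changes (LXRDKO minus WT) of single genes (points) in the 6 roles of the 38 genes (orange) and in 5 other lists (gray), with the median of each list as a black bar and that of all genes as a dashed line. Medians run from −0.06 for the damage kinases to 1.69 for growth signalling, and cell cycle genes have a median of 0.94.

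Some of the 38 genes lie near the deleted loci, where the stretch of genome carried along with each deletion and the genotype cannot be told apart. Ddb2 lies 8.74 kb from Nr1h3 on chromosome 2, with 2 tested genes nearer, and its log2 fold change was −0.07 (SE 0.14). Ddb2 also overlaps exons of Acp2 on the opposite strand, which had 3444 to 3862 normalized counts, more than Ddb2 itself at 392 to 447. Bax lies 0.908 Mb from Nr1h2 on chromosome 7, with 61 tested genes nearer. Within 1 Mb of Nr1h2, limma called 1 of 69 genes, Josd2 at a log2 fold change of −1.35, and the median was −0.03. DESeq2 called 1 of these genes higher, which was Bax itself, and 4 lower, against 1.56% and 2.03% of all genes that it tested. Within 1 Mb of Nr1h3, limma and DESeq2 called 0 of 32 genes, and the median was 0.0045. The other members on these chromosomes lay at least 28.2 Mb away. Cdkn1a, Phlda3, Inka2, Eda2r and Mdm2 lie on other chromosomes than the deleted genes.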

How the data were processed

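RNA from the left liver lobe of 2 WT and 2 LXRDKO mice was captured as mRNA with a stranded KAPA kit and read as 50-base single ends. The authors checked reads with FastQC, aligned them to mm10 with STAR 2.6.0c and normalized with DESeq2. The tool and annotation used for counting, and whether strand was used, are not given in the sources used here. The deposited values are a signal, namely read counts per gene divided by 1 size factor per library, in 4 columns with none pooled or unused. Of these values 100% were whole multiples of what 1 read is worth (tolerance 0.01 reads), and the reads were recovered from them. Gene models came from GENCODE M21, to which 24987 of 25010 identifiers matched.

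The main test was limma 3.58.1 (R 4.3.3, variance trend) on log2(normalized count + 1), with genes whose mean lay under 10 normalized counts left out (15578 kept) and Benjamini-Hochberg adjustment at 0.05. DESeq2 1.42.0 and edgeR 4.0.16 (quasi-likelihood) were run on recovered reads. The deviations of same-numbered livers from their group means had a correlation of 0.0031 across genes. This value cannot show whether the mice were paired, as by litter or day. The labels state no pairing, and none entered the main test. Alternatives were other pseudocounts, filters, scalings, thresholds and variance models, the replicate block, and each liver left out. Counting intervals (95%) were exact and cover counting error only. Scripts were tested on simulated data.

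The 38 genes, their roles and the other lists were chosen with earlier results of these data known. All 38 were described by role, with values in each liver for genes called by any tool or with separate groups, for Trp53, Mdm2 and the kinases, and otherwise ranges. Of each other pathway list up to 5 called genes were named by limma P value, and near the deleted genes those that limma called. Chromatin accessibility libraries were not analysed here.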

Additional observations from a re-analysis of the deposited data

How the results depend on the processing

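With 2 livers per genotype, most calls depended on how the spread was estimated, while fold changes moved less. The number of genes called was 50 in limma, 25 with a mean filter of 50, 1 without the variance trend, 2 at a threshold of 0.01 and 138 at 0.10, and 567 in DESeq2. Members called higher were 4 of the 38 in limma, 2 with a mean filter of 50 (Cdkn1a and Phlda3), 0 without the trend and 0 at a threshold of 0.01, and 15 in DESeq2. With the replicate number as a block, limma called 90 genes in all and 5 of the 38. The labels do not say that the numbers pair the mice. Leaving out each liver in turn, where the lone liver is assumed to vary like the others, limma called 2 to 262 genes and 0 to 7 of the 38, with 0 of the 38 whenever an LXRDKO liver was left out. DESeq2 with each liver left out, an alternative chosen after seeing the data, called 451, 298, 282 and 267 genes without WT replicates 1 and 2 and LXRDKO replicates 1 and 2, and 10, 10, 14 and 7 of the 38. Median log2 fold changes ranged with the liver left out from 0.33 to 0.68 for the 38 genes (DESeq2 0.33 to 0.70), 0.22 to 0.66 for p53 and its control (DESeq2 0.22 to 0.66), 0.70 to 1.48 for arrest, 1.14 to 2.25 for growth signalling (DESeq2 1.14 to 2.25), 0.015 to 0.11 for repair (DESeq2 up to 0.11) and −0.10 to 0.081 for the damage kinases (DESeq2 up to 0.075). Scaling to library totals gave a median of 0.10 for repair. With all 4 livers kept, members whose LXRDKO values all exceeded the WT values numbered 23, from 22 with a mean filter of 50 to 28 with scaling to library totals. The share of all genes under these alternatives was not computed. With a liver left out groups separate more easily, so those counts are not set beside the 23. Under the alternatives run, 0 of the 38 were called lower. The sign changed under some alternative for 8 uncalled members (Atm, Bcl2l1, Chek1, Chek2, Ddb2, Fas, Rrm2b and Trp53). Robust moderation left Cdkn1a short of the threshold (adjusted P = 0.0651, limma). The causes were not tested. Genes with few reads, such as Inka2 in WT livers, are limited by depth.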
